A study of Mus musculus with 4 samples.

Results

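The liver makes most of the proteins that clot blood and dissolve clots, and 10 of their genes are described here in mouse fetal liver: Fga, Fgb, Fgg, F2, F7, F9, F10, F5, Serpinc1 and Plg. They were chosen by name, as liver-made coagulation factors, from the 22011 genes of the transcript tables, and all 10 were found and passed the filter on low counts. Their 105 known splice junctions were taken from the junction tables. The RNA came from liver cells of 2 fetal samples labelled hnRNP L -/- (KO) and 2 labelled wild type (WT), to compare the genotypes of hnRNP L, a protein that binds RNA and takes part in its splicing. Mice named in the labels as kept for the study are CD45.1, LckCre transgenic and C57BL/6, and the reporter line Gt(ROSA)26Sortm4(ACTB-tdTomato,-EGFP)Luo; which of these alleles the 4 sequenced mice carried is not said. The sources used here give neither the kind of deletion nor the embryonic day or litters.

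In clotting, a cascade of serine proteases, each activated by the one before it, ends in thrombin, which cuts soluble fibrinogen into fibrin. Factors II, VII, IX and X carry a Gla domain, whose glutamates are carboxylated in a reaction that needs vitamin K, so that the factor can bind calcium and membranes. Factor V is a cofactor, antithrombin an inhibitor, and plasminogen the precursor of plasmin, which digests fibrin. Hepatocytes make them, and in fetal liver hepatocytes share the organ with a large population of blood-forming cells.

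The libraries held 33738843 to 56895360 reads on the transcripts used. The targeted gene Hnrnpl was at 280 and 269 counts per 1000000 reads (CPM) in the KO libraries, against 460 and 603 CPM in the WT libraries, so transcript remained in KO; whether its reads fall in a deleted stretch was not tested. KO replicate 2 had 336 reads of Xist and 2839 of Ddx3y, a Y-linked gene, while the other 3 libraries had 31498 to 51618 and 5 to 14. Summed over 9 markers of heart muscle, the level was 4.72 and 7.53 CPM in KO and 58.8 and 324 CPM in WT, so transcripts of heart muscle were higher in WT, and most so in WT replicate 2. Of 12 erythroid markers tested, 9 were lower in KO and 0 higher (5 lower when WT replicate 1 was left out, 4 when WT replicate 2 was, 3 when KO replicate 2 was), and their summed level was 24964 and 18818 CPM in KO and 41551 and 38043 CPM in WT. Over all genes tested on the 4 libraries, 9.44% were lower and 11.4% higher by the same test (edgeR, adjusted p under 0.05). All 22 hepatocyte markers, which included albumin and alpha-fetoprotein, were detected in every library. The labels call each library a biological sample and put 2 on each sequencing slide, without saying which shared one or whether any mice were littermates, so p-values cover the variation among these 4 libraries alone, from which slide effects cannot be told apart.

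All 10 coagulation genes had a fold change above 1 in KO on the scaling over all genes (log2 0.58 to 1.11, median 0.80, against a median of 0.02 over 15028 genes tested, of which 51.3% lay above 0); relative to the reads of the hepatocyte markers, those of F2 and F10 turned below 0. F5 and Plg rose by the edgeR quasi-likelihood test at an adjusted p of 0.05, and the other 8 did not pass it, with adjusted p of 0.0542 for F7 to 0.138 for Fgg. Over all genes tested, 11.4% were higher and 9.44% lower, so 2 of 10 is a share near the background. That count was not stable: leaving out WT replicate 1 gave 7, leaving out KO replicate 2 gave 4, and leaving out either other library gave 1, against 6.44%, 4.42% and 4.15% to 8.47% of all genes higher in those fits. DESeq2 called 7, where it called 13.1% of all genes higher, and edgeR with no filter on low counts called 10, where it called 12.6%. Both KO libraries lay above both WT libraries for 8 of the 10 genes, against 33.5% of all genes tested. The exceptions were Fgb and Fgg. In a bulk sample, fewer cells of a type and less RNA per cell cannot be told apart, so these levels do not say whether KO livers held more hepatocytes or more transcript in each. The smallest two-sided p of an exact permutation test is 0.333 with 2 libraries a group, so the calls depend on edgeR's sharing of spread among genes.

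**Figure D1:**
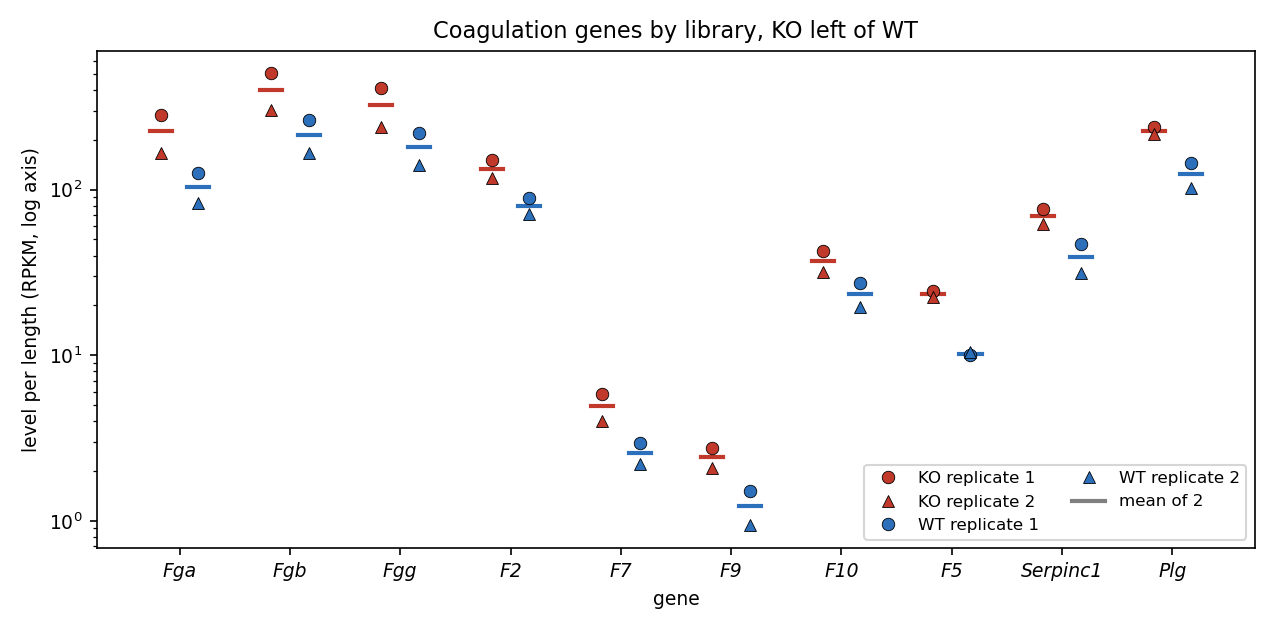
Level per length (deposited RPKM, log axis) of the 10 coagulation genes in each library, with KO left of WT; points are libraries and bars the means of 2. Fgb was the most abundant transcript and F9 the least, and the points of F5 in each group, and of Plg in KO, lie closest together.

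Per length, in reads per kilobase and 1000000 mapped reads (RPKM), the genes spanned more than 2 orders of magnitude. In KO the mean levels were in the order Fgb (402 RPKM), Fgg (327), Plg (227), Fga (225), F2 (134), Serpinc1 (69.3), F10 (37.3), F5 (23.6), F7 (4.92) and F9 (2.42). In WT the order was the same, at 215 RPKM for Fgb, 181 for Fgg, 124 for Plg, 104 for Fga, 80.1 for F2, 39.1 for Serpinc1, 23.3 for F10, 10.2 for F5, 2.57 for F7 and 1.22 for F9. The ranges of Fgb and Fgg overlapped in each group, as did those of Plg and Fga, and in WT also those of Fgg and Plg and of Fga and F2, so the order of these neighbours was not set by the ranges alone. Within a library, Fgb was above Fgg in all 4, Fgg above Plg, Plg above Fga and Fga above F2 in both WT libraries, while Fga was above Plg in KO replicate 1 and below it in KO replicate 2. The ranges of the other neighbours did not overlap. Fga was counted on its transcript row with most reads, which keeps the last intron. Its row that splices out this intron had 331 and 196 RPKM in KO and 148 and 98.4 RPKM in WT. On that row Fga was above Plg in replicate 1 of each group and below it in replicate 2. It stayed below Fgg in every library, and its WT range no longer overlapped that of F2. The order of Fga and Plg thus depended on the row kept. Per length, the F10 transcript was several times more abundant than that of F7, its neighbour on chromosome 8.

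Fibrinogen is a hexamer of paired alpha, beta and gamma chains, encoded by Fga, Fgb and Fgg. The 3 genes lie within 41895 bases of chromosome 3: Fgg at 82811818 to 82818971 and Fga at 82830075 to 82837539 on the plus strand, and Fgb at 82846227 to 82853712 on the minus strand (coordinates as the files give them; their build is not named there). Because the chains are made together, their promoters are printed here from RefSeq (GRCm38.p6), each covering 250 bases before and 50 after the annotated start. Capitals mark matches on either strand to 4 motifs: GTTAAT, from the HNF1 site; CTGGGAA, an interleukin-6 response element; TTGCNNAA, a C/EBP motif; and TATAAA, the TATA box.
Fga promoter, chr3:83025903-83026202, plus strand: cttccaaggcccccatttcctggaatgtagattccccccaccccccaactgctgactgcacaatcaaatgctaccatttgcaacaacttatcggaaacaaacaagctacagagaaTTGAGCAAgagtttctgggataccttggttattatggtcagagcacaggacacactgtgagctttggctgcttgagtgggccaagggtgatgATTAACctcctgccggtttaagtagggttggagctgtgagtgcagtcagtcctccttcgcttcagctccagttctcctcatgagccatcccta
Fgb promoter, chr3:83049814-83050113, minus strand: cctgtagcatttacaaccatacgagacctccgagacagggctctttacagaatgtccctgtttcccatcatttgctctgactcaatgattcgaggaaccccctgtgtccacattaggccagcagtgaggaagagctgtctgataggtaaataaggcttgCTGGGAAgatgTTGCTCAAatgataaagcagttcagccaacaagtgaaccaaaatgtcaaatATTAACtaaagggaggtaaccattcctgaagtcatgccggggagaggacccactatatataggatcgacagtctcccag
Fgg promoter, chr3:83007474-83007773, plus strand: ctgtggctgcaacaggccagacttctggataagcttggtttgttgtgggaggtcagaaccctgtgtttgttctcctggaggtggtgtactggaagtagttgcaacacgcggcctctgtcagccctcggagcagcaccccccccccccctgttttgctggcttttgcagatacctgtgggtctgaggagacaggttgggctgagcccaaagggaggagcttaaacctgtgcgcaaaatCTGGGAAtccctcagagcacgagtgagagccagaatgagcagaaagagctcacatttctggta
The HNF1 motif was found in Fga and Fgb, with its first base 43 and 29 bases before the start; 7.1% of 32851 mouse promoter windows of the same length hold it. The interleukin-6 element was found in Fgb and Fgg, 91 and 13 bases before the start (11.1% of windows), and the C/EBP motif in Fga and Fgb, 135 and 80 bases before it (10.8%). The exact letters TATAAA, which 13.6% of windows hold, were in none of the 3, and other forms of the TATA box were not searched for. No matches overlapped. A match describes letters in this window only. Promoter entries were found for 9 of the 10 genes, Plg being the exception, and the HNF1 motif occurred in 1 other of them, F2. The interleukin-6 element also occurred in F9, and the C/EBP motif in F9 and Serpinc1.

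Fga had 1941 and 1055 CPM in the KO libraries, against 919 and 557 CPM in the WT libraries. Fgb had 1614 and 888 CPM in KO and 899 and 525 CPM in WT. Fgg had 1280 and 687 CPM in KO and 729 and 428 CPM in WT. In each gene replicate 1 was the higher library of its group, by 1.82- to 1.86-fold in KO and 1.65- to 1.71-fold in WT, and for Fgb and Fgg KO replicate 2 fell just under WT replicate 1. The means were 1498 ± 627 and 738 ± 256 CPM for Fga, 1251 ± 513 and 712 ± 264 CPM for Fgb, and 984 ± 419 and 579 ± 213 CPM for Fgg in KO and WT (SD, n = 2 each). The log2 fold changes were 1.02 (SE 0.33), 0.81 (SE 0.33) and 0.77 (SE 0.33), and none passed (edgeR adjusted p = 0.0633, 0.117 and 0.138).

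The spread between libraries was shared by the 3 chains, so their ratios within a library were far steadier than their levels. The RPKM ratio of Fga to Fgg was 0.687 and 0.695 in KO and 0.571 and 0.589 in WT, a mean of 0.691 ± 0.00574 against 0.58 ± 0.013 (SD, n = 2 each). Both KO libraries lay above both WT libraries, and the group means differed by more than the spread within either group. The ratio of Fgb to Fgg was 1.22 and 1.25 in KO and 1.19 and 1.19 in WT, a mean of 1.24 ± 0.0215 against 1.19 ± 0.00374 (SD, n = 2 each). Here too both KO libraries lay above both WT libraries, by a smaller margin. Counted on splice junctions alone, the reads of Fga over those of Fgg came to 0.49 and 0.448 in KO and 0.38 and 0.435 in WT, again without overlap but with KO replicate 2 close to WT replicate 2. These ratios were chosen after their values were seen, and no p below 0.333 is possible for them in an exact permutation test.

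**Figure D2:**
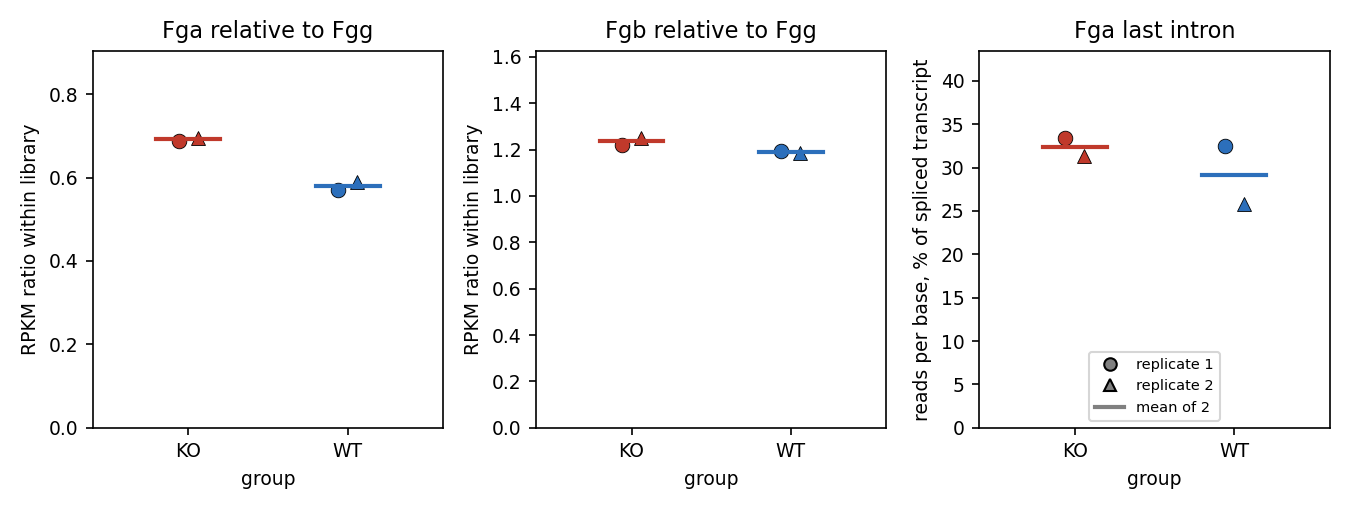
RPKM ratio of Fga to Fgg (left) and of Fgb to Fgg (middle) within each library, and read density of the Fga last intron in percent of that of the spliced transcript (right), with KO left of WT; points are libraries, bars the means of 2. The Fga to Fgg ratio separates KO at 0.687 and 0.695 from WT at 0.571 and 0.589, while the intron densities overlap.

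Fga is the one gene of the 10 with several transcript rows. One row splices out the last intron of 721 bases and encodes the longer alpha-E chain, and the other keeps that intron and is longer by the same 721 bases. The long row held 7780 and 4265 more reads than the spliced row in KO, against 2424 and 2033 more in WT. Per base, this excess was 33.4% and 31.4% of the density of the spliced row in KO, and 32.5% and 25.7% in WT. The groups overlapped. The junction across that intron had 677 and 551 reads in KO and 220 and 299 in WT, or 38.1% and 63.5% of the reads of the third Fga junction in KO and 41% and 45.1% in WT, which also overlapped. Its usage relative to the other Fga junctions had a log2 change of 0.00 (diffSpliceDGE of edgeR, adjusted p = 1.00). Fgg had 1 transcript row, and none of its 9 known junctions shared an end with another, so the tables hold no pair of Fgg isoforms to compare.

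F2, F7, F9 and F10 encode the precursors of the vitamin K-dependent proteases: prothrombin and factors VII, IX and X. Each of the 4 genes holds an exon of 25 bases near its 5′ end, which encodes a short stretch after the Gla domain. The exons are shown because the junctions beside the one in F7 gave the lowest p-values of any junction of the 10 genes, and the other 3 genes hold its counterpart. They are from the GENCODE M21 transcripts (GRCm38), with the exon in capitals and 12 bases of the neighbouring exons on each side.
F2 exon, chr2:91635171-91635195, minus strand: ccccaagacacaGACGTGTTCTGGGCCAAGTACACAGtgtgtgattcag
F7 exon, chr8:13030557-13030581, plus strand: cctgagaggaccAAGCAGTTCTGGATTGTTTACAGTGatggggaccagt
F9 exon, chrX:60004408-60004432, plus strand: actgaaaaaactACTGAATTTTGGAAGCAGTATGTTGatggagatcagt
F10 exon, chr8:13045076-13045100, plus strand: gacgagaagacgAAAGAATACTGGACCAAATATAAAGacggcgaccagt
All 4 genes have the same base at 7 of the 25 positions, counted from 1 at the 5′ end of the exon: positions 7, 10, 11, 12, 19, 20 and 25. The pairs shared 11 positions (F2 and F9) to 16 (F2 and F10).

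F2, on chromosome 2 at 91465477 to 91476571, had 611 and 437 CPM in the KO libraries, against 385 and 282 CPM in the WT libraries, with no overlap. Its mean was 524 ± 123 CPM in KO and 334 ± 73.2 CPM in WT (SD, n = 2 each), a log2 fold change of 0.65 (SE 0.21, edgeR adjusted p = 0.0657). Prothrombin had by far the most transcript of the 4 proteases per length, and its 13 junctions carried 7754 and 6218 reads in KO and 3486 and 4283 in WT. F10 had 177 and 123 CPM in KO and 120 and 80 CPM in WT. KO replicate 2 was only just above WT replicate 1, and the log2 fold change of 0.58 (SE 0.23, edgeR adjusted p = 0.105) was the smallest of the 10.

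F7, whose product starts the cascade with tissue factor, ends 1498 bases before F10 on chromosome 8 (13026034 to 13035809 and 13037308 to 13056216). It had 22 and 14 CPM in KO, against 11.9 and 8.17 CPM in WT, a log2 fold change of 0.86 (SE 0.26, edgeR adjusted p = 0.0542). F9, the X-linked gene whose loss causes haemophilia B in humans, had 15.3 and 10.7 CPM in KO and 8.95 and 5.15 CPM in WT, a log2 fold change of 0.90 (SE 0.29, edgeR adjusted p = 0.0637). Neither gene's groups overlapped, and neither passed. Both rested on few reads, 286 to 734 per library for F9 and 383 to 1055 for F7. Replicate 1 was again the higher library of each group for all 4 proteases.

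At the 25-base exon, the junction out of it in F7 had 13 and 7 reads in KO and 0 and 0 in WT, while the junction into it had 3 and 3 reads in KO and 8 and 10 in WT. The groups did not overlap at either junction, and the 2 junctions moved in opposite directions although both flank the same exon. By diffSpliceDGE of edgeR the log2 change in usage was 5.55 for the junction out (unadjusted p = 0.00356, adjusted p = 1.00) and -2.47 for the junction in (unadjusted p = 0.0235, adjusted p = 1.00). F9 had 3 and 9 reads out of its exon in KO and 0 and 0 in WT, with 0 and 1 into it in KO and 1 and 0 in WT. F10 had 30 and 14 reads out in KO and 9 and 8 in WT, but 0 and 2 into it in KO and 1 and 0 in WT. In F2, the most abundant of the 4, the exon had 104 and 79 reads in and 213 and 84 out in KO, and 49 and 73 in and 49 and 70 out in WT. In F9 and F10 reads into the exon were thus nearly missing in every library of both groups. How far read placement over so short an exon set these counts was not tested.

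F5 encodes factor V, the cofactor with which factor Xa turns prothrombin into thrombin, and it had the largest log2 fold change of the 10 on all reads and 4 libraries. On known junction reads F9 was higher (1.93, against 1.15 for F5). Without WT replicate 1, genes higher than F5 (1.14) included Fga (1.43), F9 (1.34), Fgb (1.25) and Fgg (1.20). Without KO replicate 2, Fga was above F5 too. F5 lies on chromosome 1 at 166081990 to 166150405 and had 370 and 314 CPM in the KO libraries, against 161 and 155 CPM in the WT libraries. The replicates of each group were close, 1.18- and 1.04-fold apart, where those of the other 9 genes were 1.20- to 1.86-fold apart in KO and 1.37- to 1.74-fold in WT. Its mean of 342 ± 39.8 CPM in KO was 2.17-fold that of 158 ± 4.28 CPM in WT (SD, n = 2 each; log2 fold change 1.11, SE 0.13, edgeR adjusted p = 0.00673). The call held whichever library was left out (log2 0.99 to 1.23, edgeR adjusted p of 0.0095 to 0.022). Per 1000000 known junction reads, F5 had 213 and 198 in KO and 91.5 and 84.1 in WT.

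In mice, megakaryocytes also make factor V. Of 11 megakaryocyte markers, 8 were higher and 0 lower in KO (4 without WT replicate 1 or KO replicate 1, and 5 without WT replicate 2), and their summed level was 1590 and 1330 CPM in KO against 849 and 964 CPM in WT. Over all genes tested on 4 libraries, 11.4% were higher and 9.44% lower. Relative to hepatocyte markers, 1 of the 11 was higher and 1 lower, with a median log2 fold change of -0.11. Over all genes on that scaling the median was -0.69, 0.511% were higher and 29.7% passed in either direction. None of the 11 markers was at 0 reads in any library. Their part in the F5 result was not tested.

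Serpinc1 encodes antithrombin, the main plasma inhibitor of thrombin and factor Xa, and lies on chromosome 1 at 162908737 to 162933145. It had 336 and 253 CPM in KO, against 220 and 136 CPM in WT. The groups did not overlap, but the log2 fold change of 0.73 (SE 0.24) did not pass (edgeR adjusted p = 0.0653). Plg, which encodes plasminogen, lies on chromosome 17 at 12571475 to 12612250 and had 1339 and 1117 CPM in KO, against 867 and 565 CPM in WT. It rose 1.72-fold, with a mean of 1228 ± 157 CPM in KO and 716 ± 214 CPM in WT (SD, n = 2 each; log2 fold change 0.78, SE 0.22, edgeR adjusted p = 0.0468). The Plg call was lost without WT replicate 2 (edgeR adjusted p = 0.217), KO replicate 1 (0.124) or KO replicate 2 (0.0725).

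The coagulation genes moved by about as much as the hepatocyte markers did. Of those 22 markers, 10 were higher and 0 lower, with a median log2 fold change of 0.68, and 2 were higher with WT replicate 2 left out, 6 without KO replicate 1 and 15 without WT replicate 1. Their summed level was 93399 and 77973 CPM in KO and 61865 and 44966 CPM in WT. When library sizes were set to the reads of these markers, the median log2 fold change of all genes moved to -0.69, with 77 genes higher and 4398 lower in place of 1711 and 1419. The 10 genes then lay between -0.10 for F10 and 0.40 for F5, with a median of 0.12, and none passed by edgeR, at either the adjusted threshold or an unadjusted p of 0.05. Standard errors were also larger there for several genes, at 0.37 in place of 0.13 for F5 and 0.36 in place of 0.21 for F2. That of Fga stayed at 0.33.

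Counted per 1000 hepatocyte marker reads, F2 had 6.54 and 5.6 reads in KO and 6.23 and 6.27 in WT, Plg 14.3 and 14.3 in KO and 14 and 12.5 in WT, and Serpinc1 3.6 and 3.24 in KO and 3.56 and 3.02 in WT. These groups overlapped for F2 and Serpinc1. F5 had 3.97 and 4.03 reads in KO and 2.6 and 3.45 in WT, without overlap (log2 fold change 0.40, SE 0.37, edgeR adjusted p = 0.395). Fga had 20.8 and 13.5 in KO and 14.9 and 12.4 in WT, with overlap.

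**Figure D3:**
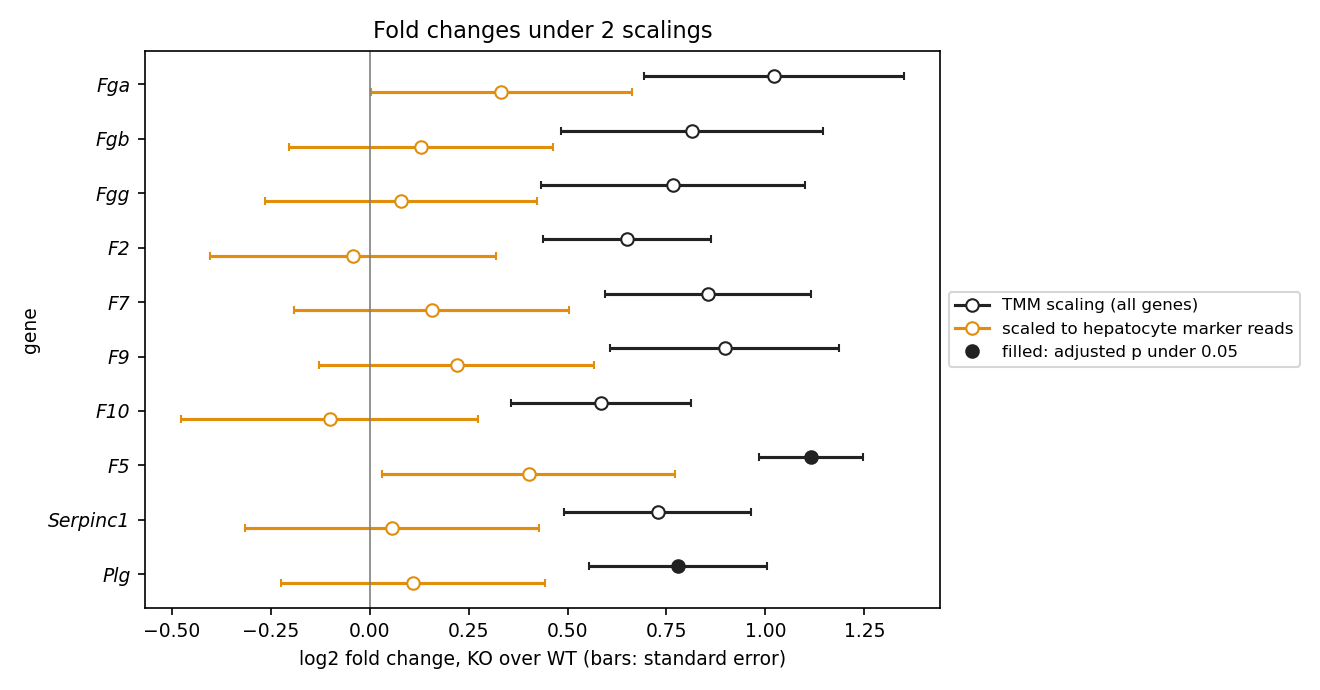
Log2 fold change, KO over WT, of the 10 coagulation genes with its standard error, scaled over all genes (TMM, black) and to the reads of 22 hepatocyte markers (orange); filled points have an edgeR adjusted p under 0.05. Relative to the hepatocyte markers all 10 points move toward 0, and those of F2 and F10 fall below it.

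Other genes were read from lists, beside the 20.8% of all genes that passed in either direction. Relative to hepatocyte markers, 77 of 15072 genes were higher and 4398 lower, with a median log2 fold change of -0.69. The lists hold further coagulation genes, liver transcription factors and acute phase genes, together called pathway genes here. Of the 84 tested, 14 were liver transcription factors and 14 acute phase genes. Over all 84, 40 were higher and 1 lower, against 2 higher and 4 lower relative to hepatocyte markers. The median log2 fold change was 0.73, and 0.06 relative to hepatocyte markers. Of 22 further factors and inhibitors made by liver, 10 were higher and 0 lower, with a median log2 fold change of 0.79; leaving out WT replicate 2 left 2 of these calls in number, KO replicate 1 left 3, and WT replicate 1 gave 16. Relative to hepatocyte markers 0 of these 22 passed by edgeR, at the adjusted threshold or an unadjusted p of 0.05, and the median was 0.10. On the scaling over all genes Serping1, the C1 inhibitor, rose 2.29-fold and did so whichever library was left out. Pzp, a broad protease inhibitor, rose 2.02-fold, Klkb1 (plasma prekallikrein) 1.82-fold, F11 (factor XI) 1.75-fold, Cpb2, which slows fibrin digestion, 1.74-fold, F12 (factor XII) 1.70-fold, F13b, a subunit of factor XIII, 1.63-fold and Pros1 (protein S) 1.59-fold; relative to hepatocyte markers Pros1 lay at log2 -0.052. The calls of Pzp, Klkb1, F12, Cpb2, F11 and F13b were lost without WT replicate 2, those of Klkb1, F12, Cpb2, F11 and F13b without KO replicate 1, those of F11 and F13b without KO replicate 2, and that of Pros1 without WT replicate 1. 

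Of 15 coagulation genes typical of other cells, 6 were higher and 1 lower (median log2 fold change 0.36), beside 11.4% and 9.44% of all genes. Relative to hepatocyte markers 1 was higher and 3 lower, with a median of -0.35. Over all genes on that scaling the median was -0.69, 0.511% were higher and 29.7% passed in either direction. Vwf, the von Willebrand factor of endothelium and platelets, rose 2.06-fold (66.9 and 87.7 CPM in KO, 33.1 and 41.8 CPM in WT), and F8, the factor VIII gene, 1.57-fold, though F8 turned below 0 relative to hepatocyte markers. Tfpi2, Serpine2 and Adamts13 rose 1.93-, 1.72- and 1.73-fold. F13a1, the catalytic subunit of factor XIII, which blood cells make, was the 1 lower gene, with 24.2 ± 4.98 CPM in KO and 40.8 ± 3.46 CPM in WT (SD, n = 2 each; edgeR adjusted p = 0.0204). Vwf passed whichever library was left out, while 4 of the 7 calls remained in number without WT replicate 2 and 4 without KO replicate 2. F8 was lost without WT replicate 1, Serpine2 without WT replicate 2, Tfpi2 without WT replicate 2 or KO replicate 2, Adamts13 without any library but WT replicate 1, and F13a1 without WT replicate 1 or KO replicate 2. Of 10 endothelial markers, 6 were higher and 0 lower (3 without WT replicate 1, and a median log2 fold change of 0.54 that turned to -0.18 relative to hepatocyte markers, with 0 calls by edgeR at adjusted or unadjusted p), with a summed level of 895 and 946 CPM in KO and 551 and 610 CPM in WT, and their part in the values of Vwf and F8 was not tested.

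Of 13 receptor genes tested, 8 were higher and 0 lower (4 without WT replicate 1 and 4 without KO replicate 1), while relative to hepatocyte markers 0 passed by edgeR, 1 was lower at an unadjusted p of 0.05, and the median log2 fold change was -0.014. Lrp1, an endocytic receptor that clears proteases bound to inhibitors, rose 1.79-fold, and the thrombin receptors F2r and F2rl2 rose 1.66- and 1.41-fold, both turning below 0 relative to hepatocyte markers. The platelet receptors Gp1ba, Itga2b and Itgb3, which are also among the megakaryocyte markers, rose 2.12-, 1.89- and 1.55-fold, Plaur 2.36-fold and Asgr2 1.76-fold; of these Itgb3 turned below 0 relative to hepatocyte markers. Of these 8, Lrp1, Gp1ba and Itga2b passed whichever library was left out; F2r was lost without WT replicate 1, Plaur without WT or KO replicate 1, Asgr2 without WT replicate 2 or KO replicate 1, Itgb3 without any library but WT replicate 2, and F2rl2 without any but KO replicate 2. Of 6 genes of the vitamin K cycle and of factor secretion, 2 were higher: the protease Furin, which removes propeptides, 1.66-fold, and Mcfd2, which helps to carry factors V and VIII out of the endoplasmic reticulum, 1.47-fold (below 0 relative to hepatocyte markers). None of the 6 passed without WT replicate 2 and 1 without KO replicate 1.

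Of 14 transcription factors of liver, 8 were higher and 0 lower (6 to 8 with any 1 library left out). Relative to hepatocyte markers 0 passed by edgeR, 1 was higher and 1 lower at an unadjusted p of 0.05, and the median log2 fold change moved to 0.094, against 0.76. Foxa2 rose 2.72-fold, Prox1 2.39-fold, Ppara 2.03-fold, Nr5a2 1.96-fold, Hnf4a 1.88-fold and Cebpa 1.81-fold, all 6 whichever library was left out, while Foxa3 (1.59-fold, and just below 0 relative to hepatocyte markers) and Foxa1 (1.72-fold) did not pass when either replicate 2 was left out. Hnf4a had 157 and 222 CPM in KO and 103 and 98 CPM in WT, so KO replicate 2 was the higher KO library, the reverse of the 10 coagulation genes. Of 14 acute phase genes tested, 6 were higher (1 without WT replicate 2 and 3 without KO replicate 1). Il6st, the signalling chain of the interleukin-6 receptor, rose 1.65-fold whichever library was left out. Itih4 rose 3.60-fold (610 and 201 CPM in KO, 122 and 103 CPM in WT), Lcn2 2.04-fold and Lbp 1.78-fold, each lost without WT replicate 2 and Lbp also without KO replicate 1, Saa4 1.67-fold, lost without any library but WT replicate 1, and Stat3 1.33-fold, lost with any 1 library left out and below 0 relative to hepatocyte markers.

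**Figure D4:**
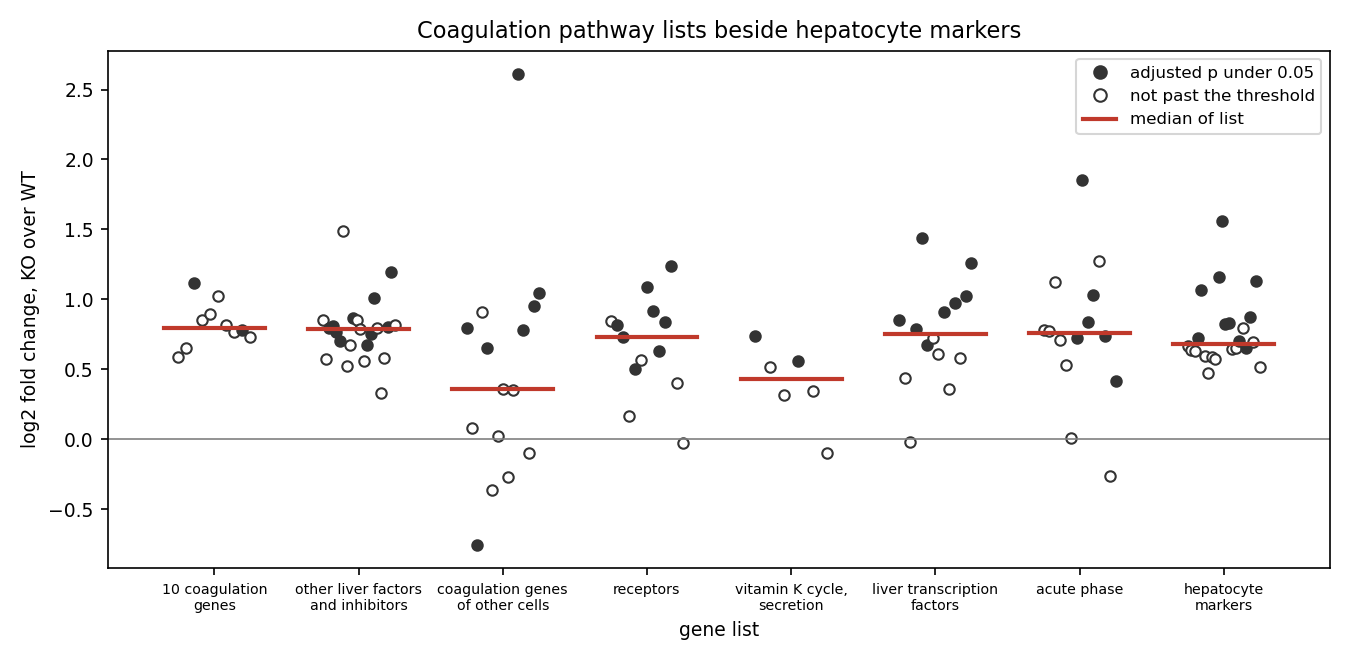
Log2 fold change of each tested gene, KO over WT on the scaling over all genes, by list. The lists hold coagulation genes, liver transcription factors, acute phase genes and hepatocyte markers. Filled points have an edgeR adjusted p under 0.05 and red bars are list medians. The 10 coagulation genes (median 0.80) lie in the range of the further liver factors (0.79) and the hepatocyte markers (0.68). F2 and F10 turn below 0 when scaled to hepatocyte marker reads. The gene Apoh is in both the further liver factors and the hepatocyte markers, so its own reads are part of that scaling.

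Among 5891 other genes whose log2 CPM averaged 5 or more, those whose centred log2 CPM over the 4 libraries lay nearest to the mean of the 10 genes, by Euclidean distance, were Kng1, Vtn, Serpina10, Lbp and Agt (distances of 0.0524, 0.0534, 0.0612, 0.0801 and 0.112). The mean of the 10 genes lay at 0.70 and 0.12 in KO and -0.11 and -0.71 in WT. Kng1 lay at 0.72 and 0.14 in KO and -0.11 and -0.75 in WT. With 4 libraries such a likeness is a description.

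Junction usage gave no call in the 10 genes. Of their 105 known junctions, 104 had a read and 101 could be tested, and 0 passed by diffSpliceDGE of edgeR, beside 0.00194% of 103333 junctions over all genes; at an unadjusted p of 0.05, 2 did, both in F7. No other tool was run on junctions. Known junction reads of a gene add a second count of its level, and on these the 10 genes had log2 fold changes of 0.64 (F2) to 1.93 (F9), with 6 past the threshold, all higher: F5, F9, Fga, Fgb, Plg and Serpinc1. Of 11247 genes tested on these reads, 6.19% were higher. F9 rested there on 68 and 43 reads in KO and 14 and 11 in WT.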

How the data were processed

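RNA of 4 fetal liver libraries (2 KO, 2 WT) was depleted of ribosomal RNA before sequencing, per the labels' protocols. The authors deposited raw counts of reads per RefSeq transcript; per the file headers these come from primary alignments, with mapping quality from 10 up, a minimum score of 0 and a score clear zone of 5. The same tables hold the deposited RPKM, per kilobase and 1000000 mapped reads. A coverage signal, reads per base, was also deposited. The authors also deposited raw counts of reads per splice junction. The sources used here name no aligner, build or strand setting. Precision is limited by 2 libraries a group, and for F7, F9 and single junctions also by read number.

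For each gene the transcript row with most reads was kept (22011 genes). Levels were tested with edgeR 4.0.16 (R 4.3.3, quasi-likelihood, TMM, filterByExpr, Benjamini-Hochberg over 15028 genes, threshold 0.05), and junctions of at least 10 reads with diffSpliceDGE. DESeq2 1.42.0 and limma 3.58.1 were alternatives. The members, lists and motifs were chosen with earlier results of these data known; named genes were the 10 members, Hnrnpl, up to 8 genes past the threshold of each pathway list and the 5 nearest in pattern. The values of 1 gene of these lists are not reported here.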

Additional observations from a re-analysis of the deposited data

How the results depend on the processing

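Of the 10 coagulation genes, 2 passed in the reported test, 7 with DESeq2 (24.9% of all genes), 10 with no filter on low counts (21.9%), 6 on known junction reads (10.6%), 0 with library sizes from hepatocyte marker reads (29.7%, nearly all lower), and 1 to 7 with 1 library left out (7 without WT replicate 1, 1 without WT replicate 2 or KO replicate 1, and 4 without KO replicate 2). The count was 3 with limma voom (20.6% of all genes), 2 with median-ratio size factors in edgeR (21%) and 2 with summed transcript rows (19.8%). The cause of these differences was not tested. All 10 stayed above 0 except F2 (-0.042) and F10 (-0.10) relative to hepatocyte markers. On that scaling Pros1 (-0.052), F8 (-0.070), F2r (-0.014), Itgb3 (-0.11), F2rl2 (-0.21), Mcfd2 (-0.15), Foxa3 (-0.0055) and Stat3 (-0.32) also turned. Pathway genes past the threshold numbered 41, but 6 on that scaling and 19 to 44 with 1 library left out. No junction of the 10 genes passed under any of the 7 alternatives run. Over all genes 3130 passed, 1616 without WT replicate 1, 1105 without WT replicate 2, 1022 without KO replicate 2 and 1191 on junction reads. Depth limits F9 and the 25-base exons.

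The file names give KO and WT replicate 1 a shared number and replicate 2 another, which no label explains. Deviations from the group means correlated at 0.14 over 15028 genes between same-numbered libraries. With that number as a replicate block, all 10 coagulation genes passed, as did 56 pathway genes and 4341 of all genes (28.9%), and 0 member junctions. With only 2 pairs the number is not shown to pair the mice.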

Other observations

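The putative junctions of the 10 coagulation genes had few reads, and most of these were in Plg. Its putative junctions had 52 and 38 reads in KO and 6 and 19 in WT, against 11029 and 10351 known junction reads in KO and 4699 and 5452 in WT. The one with most reads, chosen after its values were seen, joins exon 8 to exon 11 (chromosome 17, 12588650 to 12595917) and leaves out 2 exons in the part of the gene that encodes the kringle domains, which bind fibrin. It had 34 and 26 reads in KO and 4 and 14 in WT. Of the reads at its donor, it took 23.1% (95% exact interval 16.6% to 30.8%) and 23.6% (16.1% to 32.7%) in KO, and 10% (2.79% to 23.7%) and 12.8% (7.2% to 20.6%) in WT. Of the reads at its acceptor it took 1.64% (1.14% to 2.29%) and 1.19% (0.782% to 1.75%) in KO, and 0.409% (0.112% to 1.04%) and 1.36% (0.748% to 2.28%) in WT, so the groups overlapped there. The intervals cover counting error only. The known junction at that donor, exon 8 to 9, held only 113 and 84 reads in KO and 36 and 95 in WT. The known junction at the acceptor, exon 10 to 11, held 2036 and 2150 in KO and 973 and 1012 in WT. The donor share thus rests on a small known count. Per 1000 known Plg junction reads, the exon 8 to 11 junction had 3.08 and 2.51 in KO and 0.851 and 2.57 in WT, also with overlap. By diffSpliceDGE of edgeR on known and putative junctions, its log2 change in usage of 0.81 did not pass (unadjusted p = 0.242, adjusted p = 1.00).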
